A study of Mus musculus with 128 samples.

Results

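Klotho (Kl) and 8 genes that mark the parts of the nephron were followed in Kidney over 4 ages and set against 7 other tissues. The genes are Kl, Umod, Egf, Slc12a1, Slc12a3, Aqp1, Aqp2, Ren1 and Nphs1. They were chosen by name, because each is a textbook marker of a kidney cell type, but with earlier results of these data known. They are 9 of the 55285 genes in the data. All 9 passed the filter on low values in Kidney, which kept 15706 genes. The study profiled RNA of untreated, wild-type, male C57BL/6J mice, an inbred laboratory strain. It sampled 6, 15, 24 and 30 months of age in Kidney, Aorta, Brain, Heart, Liver, Lung, Muscle (gastrocnemius) and Skin, with 4 libraries for each of the 32 groups. The records of the Aorta libraries give the age in the sample name and carry no tag for sex, strain or genotype. The labels do not say whether the 4 libraries of a group came from separate mice, so the p-values below measure the spread between these libraries.

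In the nephron, podocytes of the glomerulus filter the blood, and the proximal tubule, loop of Henle, distal convoluted tubule and collecting duct then take back water and salt in turn. Klotho is a membrane protein of the tubule, most abundant in the distal convoluted tubule, and the co-receptor through which the bone hormone FGF23 lowers phosphate reabsorption and calcitriol synthesis. Mice that lack Klotho develop a syndrome that resembles early ageing. Renin, the product of Ren1, is released by juxtaglomerular cells of the afferent arteriole and starts the cascade that ends in angiotensin II and aldosterone.

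At 30 months, 5 of the 9 genes differed from 6 months at an adjusted p under 0.05 (limma on log2 values, Benjamini-Hochberg over all 15706 genes). Kl, Egf and Ren1 fell, while Aqp2 and Nphs1 rose. Among all genes tested in this comparison, 28.2% passed, 14.1% higher and 14.1% lower. Ren1 moved most, with a log2 fold change of -1.28, followed by Kl at -0.44. The 2 salt transporters Slc12a1 and Slc12a3, the loop protein gene Umod and the water channel gene Aqp1 did not pass. Values are normalised reads, which are read counts divided by a size factor for each library within a tissue. In these bulk libraries, fewer cells of a type and less RNA per cell cannot be told apart.

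The Kidney libraries held 11907641 to 23325085 reads. Their size factors set the median log2 change of all genes at 30 against 6 months to 0.0017, with 2216 genes higher and 2215 lower. Scaled by the library total in place of the size factor, an alternative chosen after seeing the data, the median of all genes was 0.15 and the split was 4211 higher and 825 lower. The changes below are therefore relative to the middle of all genes. Replicates 3 and 4 at 30 months stood apart, with a median Spearman correlation across genes to the other Kidney libraries of 0.9773 each, against 0.9855 to 0.9911 for the remaining 14. Below, results are also given without these 2 libraries where that ends a call or moves a gene's value or a list count by over 1.5 times. For the list genes this alternative was chosen after seeing the data. Without these 2 libraries, 1476 genes were higher and 1222 lower at 30 against 6 months, of 16163 tested. Fewer genes passed in general, and list counts in that setting are to be read against those numbers. Counts scaled by library total are likewise to be read against 4211 higher and 825 lower of 15706. Some list medians printed below also moved by over 1.5 times without these 2 libraries. The proximal tubule median went from -0.18 to -0.076, and that of the Klotho and mineral list from -0.19 to -0.0715. The renin system median went from -0.14 to -0.090, and that of the transcription factors from -0.07 to -0.15.

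**Figure D1:**
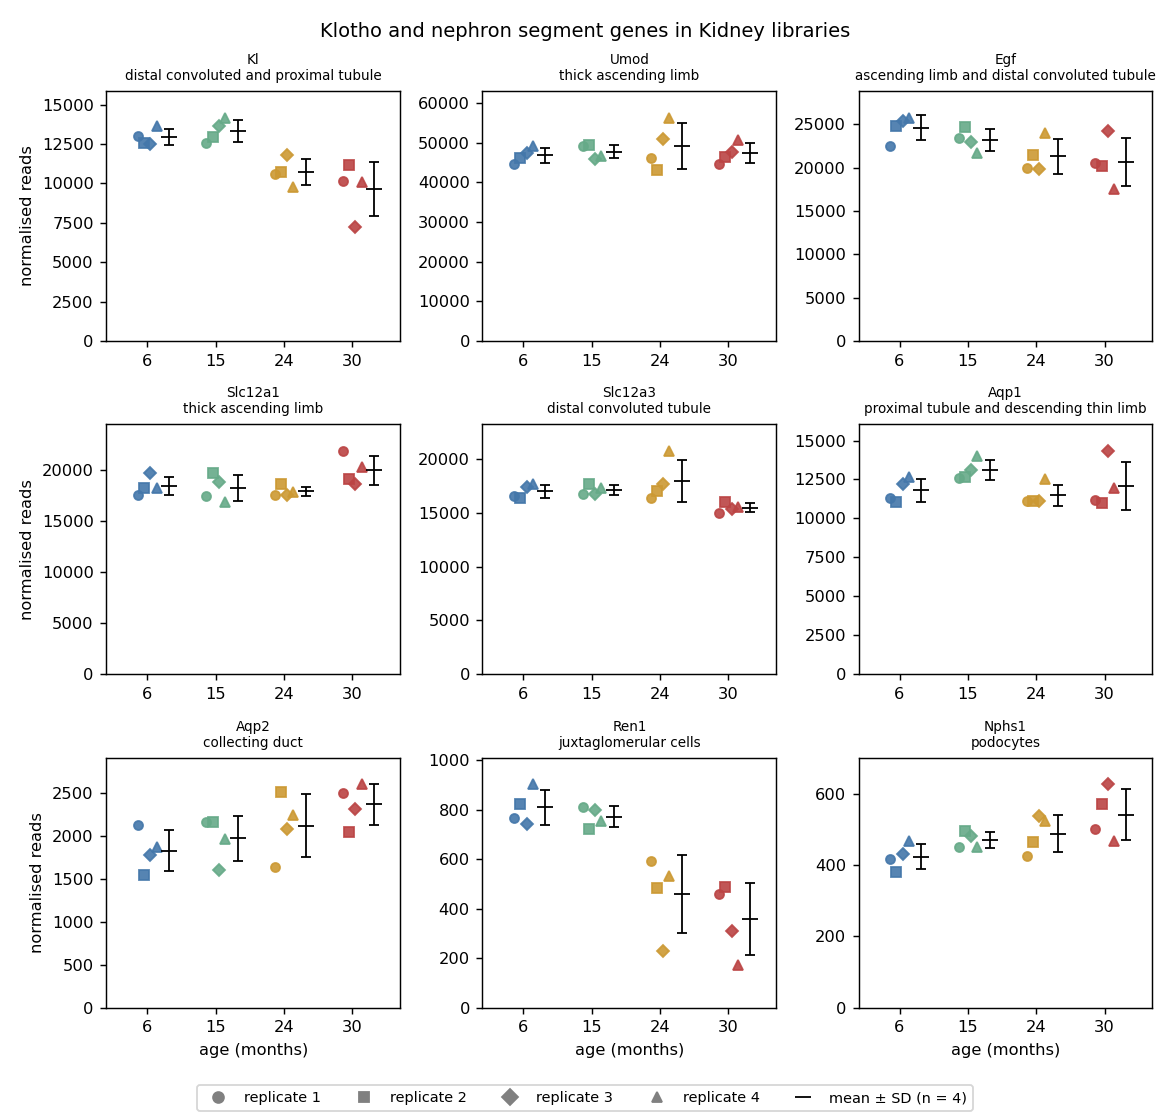
Normalised reads of the 9 genes in the 16 Kidney libraries, by age in months, with a panel for each gene and the cell type it marks. Each symbol is a library, and the bar beside each group is the mean ± SD of 4 libraries. Kl, Slc12a3 and Ren1 at 30 months lie below every 6-month library, as do 13.6% of all genes tested.

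Kl had 13016, 12586, 12524 and 13637 normalised reads at 6 months and 12590, 12931, 13676 and 14175 at 15 months. The 24-month libraries had 10599, 10757, 11793 and 9802, and at 30 months 10150, 11196, 7235 and 10060. The 6- and 15-month libraries overlap, and all 8 of the older libraries lie below all 8 of the younger ones, as held for 2.77% of all genes tested. Kl averaged 9660 ± 1697 normalised reads at 30 months and 12941 ± 513 at 6 months (SD, n = 4 each). It fell by 26.3%, a log2 fold change of -0.44 (SE 0.10, 95% confidence interval -0.65 to -0.23, limma adjusted p = 0.00448). Replicate 3 at 30 months is the lowest Kl value, and without replicates 3 and 4 of that age the log2 fold change was -0.28 (adjusted p = 0.0161). Scaled by library total it was -0.29 (adjusted p = 0.0243).

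Already at 24 months the Kl libraries lay below the 6-month ones without overlap, as did 9.68% of all genes, with a log2 fold change of -0.27 that did not pass (SE 0.10, adjusted p = 0.0971). It passed in the fit of those 2 ages alone (adjusted p = 0.0130) and without the 30-month replicates 3 and 4 (adjusted p = 0.00549). In the main fit the 4 ages share an estimate of the spread. From 24 to 30 months the difference was -0.17 (SE 0.10, adjusted p = 0.525). At 15 against 6 months it was 0.04 (SE 0.10, adjusted p = 0.900). The 250 bases before the start of Kl are shown because Kl fell most of the tubule genes among the 9. They are taken from RefSeq on GRCm38.p6, chr5:150952357-150952606, plus strand, 5′ to 3′, from position -250 to -1.
Kl: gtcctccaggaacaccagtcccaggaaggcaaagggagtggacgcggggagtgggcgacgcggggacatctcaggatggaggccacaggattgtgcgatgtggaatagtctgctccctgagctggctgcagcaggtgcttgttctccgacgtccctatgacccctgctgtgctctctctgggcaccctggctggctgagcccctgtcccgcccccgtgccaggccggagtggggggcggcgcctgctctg
This window is 66.8% G and C with 13 CG steps, against medians of 52.4% and 6 over 32851 RefSeq promoters. It holds none of the 4 motifs searched on both strands of the 300-base promoter windows (250 bases before to 50 after the start). These were TATAAA (the TATA box, in 13.6% of all promoters), GTTAAT (part of the HNF1 motif, 7.1%), TGACGT (the core of the cyclic AMP response element, 7.51%) and AAGGTCA (a nuclear receptor motif, 4.72%). A match or its absence describes these letters alone.

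Among 25 tested genes of the Klotho, FGF23 and mineral pathway, 8 fell and 2 rose at 30 months, with a median log2 fold change of -0.19. Without the 30-month replicates 3 and 4 the counts were 4 and 1, and scaled by library total they were 4 and 2 with a median of -0.04. Calb1, the calcium buffer calbindin of the connecting tubule, fell by 0.89 on the log2 scale (SE 0.11, limma adjusted p = 3.62e-05). Its libraries ran from 2385 to 3560 normalised reads at 30 months and from 4868 to 6057 at 6 months, with no overlap. Slc8a1, a sodium-calcium exchanger, fell by 0.82, Galnt3, the glycosyltransferase that protects FGF23 from cleavage, by 0.43, and Pth1r, the parathyroid hormone receptor, by 0.42. Without 30-month replicates 3 and 4, Galnt3 had -0.26 (adjusted p = 0.0596) and no longer passed, and Pth1r had -0.25 (adjusted p = 0.00757).

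Cyp27b1, which makes calcitriol and is held down by FGF23 and Klotho, rose by 1.60 on the log2 scale (SE 0.33, adjusted p = 0.00187). It had 349, 239, 787 and 509 normalised reads at 30 months, against 111, 102, 263 and 130 at 6 months. The groups overlap through 6-month replicate 3, and the highest value is in 30-month replicate 3, the library with the lowest Kl. Without 30-month replicates 3 and 4 the change was 1.04 (adjusted p = 0.0338). Its means did not move steadily with age, at 151, 334, 225 and 471 normalised reads at 6, 15, 24 and 30 months. At 24 against 6 months Cyp27b1 had a log2 fold change of 0.65 (limma adjusted p = 0.220). A link between Kl and Cyp27b1 was not tested. Trpv6, a calcium channel, rose by 0.81 (adjusted p = 0.0465) from low levels, with means of 27.5 normalised reads at 30 months and 15.3 at 6 months, and did not pass without those libraries (adjusted p = 0.117). The receptor Fgfr1 had a log2 fold change of 0.0085 (adjusted p = 0.947). Fgf23 itself and Klb, the gene of the related beta-Klotho, did not pass the filter and had at most 1.05 and 2.90 normalised reads in any 6- or 30-month library.

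Egf encodes the precursor of epidermal growth factor, made in the thick ascending limb and distal convoluted tubule. It had 22536, 24774, 25324 and 25756 normalised reads at 6 months and 23434, 24670, 22899 and 21686 at 15 months. At 24 months the 4 values were 19910, 21411, 19780 and 24032, and at 30 months 20538, 20211, 24278 and 17517. The 30- and 6-month groups overlap through replicate 3 at 30 months. Egf averaged 20636 ± 2780 at 30 months and 24598 ± 1432 at 6 months (SD, n = 4 each) and fell by 16.6%. The log2 fold change was -0.26 (SE 0.09, 95% interval -0.45 to -0.070, adjusted p = 0.0403).

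The Egf call sits near the threshold. Scaled by library total the log2 fold change was -0.11 (adjusted p = 0.415), and adjusted p was 0.0890 with no filter and 0.102 with the 2 ages alone. The call was also lost on leaving out any of 7 single libraries, with adjusted p up to 0.135: replicates 2, 3 and 4 at 6 months, replicate 3 at 15 months and replicates 1, 2 and 4 at 30 months. At 24 against 6 months the change was -0.21 (SE 0.09, adjusted p = 0.150). Of 9 tested genes of the EGF family and its receptors, 3 rose and none fell at 30 months, with a median of 0.17. The risers were Erbb2 (0.52, adjusted p = 0.00295), Nrg1 (0.68, adjusted p = 0.0111) and Egfr, the receptor of EGF (0.24, adjusted p = 0.0285). Without 30-month replicates 3 and 4 the count was 2 higher, and Nrg1 and Egfr no longer passed (adjusted p = 0.0913 and 0.0779). The 250 bases before the Egf start at the 5′ end of the gene are shown beside those of Kl, the other tubule gene that fell (GRCm38.p6, chr3:129755323-129755572, minus strand).
Egf: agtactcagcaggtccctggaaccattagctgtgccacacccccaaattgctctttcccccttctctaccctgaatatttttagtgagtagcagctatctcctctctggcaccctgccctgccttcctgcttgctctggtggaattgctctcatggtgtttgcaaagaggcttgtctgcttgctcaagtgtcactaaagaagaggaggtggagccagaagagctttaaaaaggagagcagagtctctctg
This window is 50.4% G and C and has 0 CG steps, where Kl has 13. A further Egf window, inside the gene at chr3:129725087-129725336, is 52% G and C with 15 CG steps. Neither Egf window holds any of the 4 motifs. Genes on the opposite strand overlap the Egf gene. The highest of them, 6330410L21Rik, had 11.4 to 29.2 normalised reads in the Kidney libraries, and Gm42697 and Gm42650 had at most 13.7 and 0.

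Umod encodes uromodulin, the most abundant protein of normal urine, made by the thick ascending limb. It was the highest of the 9 genes in reads and in reads per kilobase. Its normalised reads ranged from 44710 to 49225 at 6 months, 45908 to 49400 at 15 months, 43197 to 56303 at 24 months and 44627 to 50568 at 30 months, with all 4 groups overlapping. The log2 fold change at 30 against 6 months was 0.014 (SE 0.08, 95% interval -0.16 to 0.19, adjusted p = 0.921). Umod reads per Egf read averaged 2.33 ± 0.40 at 30 months and 1.91 ± 0.055 at 6 months (SD, n = 4 each), a description with no test. The Umod promoter window holds GTTAAT at position -202.

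Slc12a1 encodes NKCC2, the sodium, potassium and chloride cotransporter of the thick ascending limb that loop diuretics block. It had 17545, 18219, 19717 and 18277 normalised reads at 6 months and 17441, 19728, 18814 and 16882 at 15 months. At 24 months it had 17593, 18580, 17530 and 17881, and at 30 months 21848, 19082, 18631 and 20314. The groups at 30 and 6 months overlap, and the log2 fold change was 0.11 (SE 0.07, 95% interval -0.028 to 0.26, adjusted p = 0.222). Scaled by library total it was 0.26 and passed (adjusted p = 0.00356). Slc12a3 encodes NCC, the sodium chloride cotransporter of the distal convoluted tubule that thiazides block. It had 16573, 16394, 17374 and 17645 normalised reads at 6 months and 16703, 17644, 16714 and 17348 at 15 months. At 24 months it had 16414, 17030, 17682 and 20732, and at 30 months 14993, 15964, 15346 and 15563. Every 30-month library lies below every 6-month one, as did 13.6% of all genes in this comparison, yet the log2 fold change of -0.14 did not pass (SE 0.07, 95% interval -0.28 to 0.0048, adjusted p = 0.140). On the library-total scale it was 0.015 (adjusted p = 0.893), so the sign rests on the scaling.

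The ratio of these transporters needs no scaling between libraries. Slc12a1 reads per Slc12a3 read ran from 1.04 to 1.14 at 6 months, 0.973 to 1.13 at 15 months, 0.862 to 1.09 at 24 months and 1.195 to 1.457 at 30 months. The 4 libraries at 30 months lie above the other 12, a pattern noticed after seeing the values and not tested. At 30 against 24 months the groups also did not overlap for either gene, as held for 5.21% of all genes. Slc12a1 was higher in all 4 libraries at 30 months, with a log2 fold change of 0.16 (SE 0.07, adjusted p = 0.408), and Slc12a3 lower in all 4, with -0.21 (SE 0.07, adjusted p = 0.337).

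Other genes of these segments were read beside them. In the thick ascending limb list, 2 of 13 tested genes fell at 30 months, Cldn10, a tight junction protein (-0.47, adjusted p = 0.000132), and Bsnd, a chloride channel subunit (-0.22, adjusted p = 0.0161), and 0 rose. The list median was -0.022, and 14.1% of all genes were lower in this comparison. With library-total scaling the list had 3 higher and 1 lower, with a median of 0.13. On that scale all 15706 genes had 4211 higher and 825 lower, with a median of 0.15. In the distal convoluted tubule list, 3 of 8 fell and 0 rose, with a median of -0.23. Pvalb, the calcium-binding protein parvalbumin, fell by 1.46 (adjusted p = 0.00129), Kcnj16, a potassium channel subunit, by 0.39 and Cnnm2, which takes part in magnesium transport, by 0.26. With 30-month replicates 3 and 4 left out, 5 of 8 fell. Scaled by library total, 2 of that list fell, with a median of -0.076.

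In the list of WNK kinases, SPAK and chloride cotransporters, which holds the regulators of both transporters, 3 of 16 genes fell and 1 rose, with a median of -0.11 (0.04 scaled by library total). Slc12a2, the NKCC1 cotransporter, fell by 0.45 (adjusted p = 0.00181), with a change of -0.29 without 30-month replicates 3 and 4 (adjusted p = 0.0310). On the library-total scale the list had 1 lower and 2 higher. Cul3, a ubiquitin ligase scaffold that acts on WNK kinases, fell by 0.26, and Cab39, a partner of the SPAK kinase, by 0.23. Slc12a4, the potassium chloride cotransporter KCC1, rose by 0.54 (adjusted p = 0.000209). The kinases Wnk4 and Stk39 (SPAK) had log2 fold changes of 0.05 (adjusted p = 0.625) and 0.02 (adjusted p = 0.884).

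**Figure D2:**
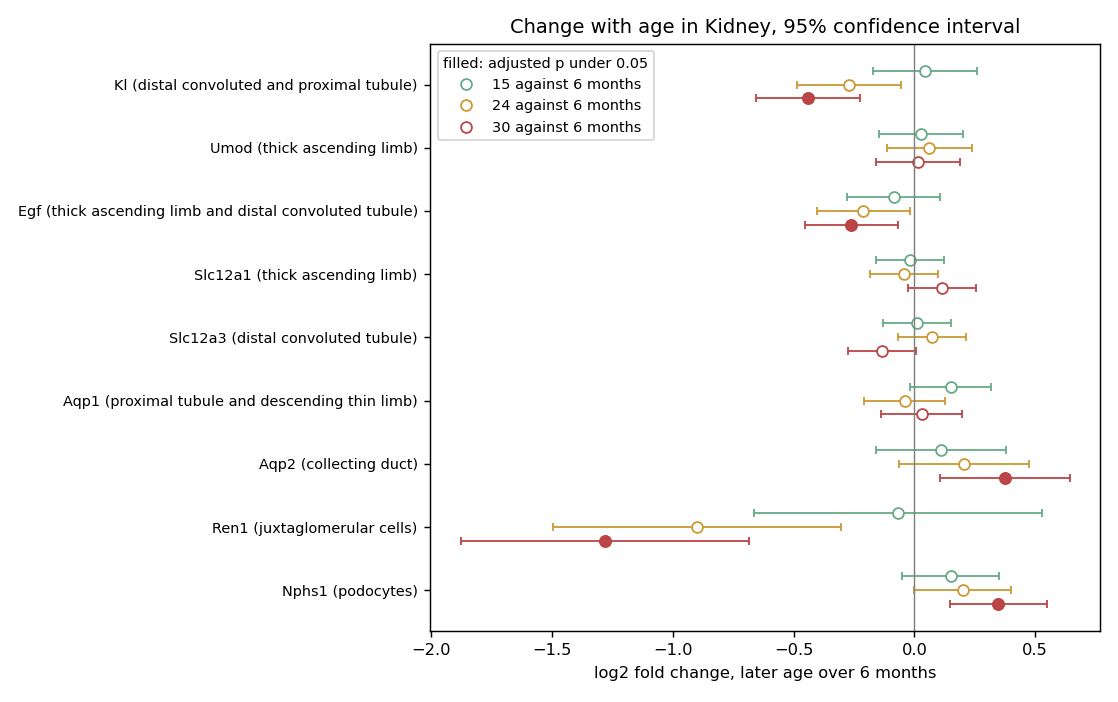
Log2 fold change of each gene in Kidney at 15, 24 and 30 months over 6 months, with its 95% confidence interval, and filled points where adjusted p is under 0.05. Filled points appear at 30 months for Kl, Egf, Aqp2, Ren1 and Nphs1. The estimates of all these genes lie further from 0 at each later age after 15 months. For none of them did the change from 24 to 30 months pass.

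Aqp1 encodes the water channel of the proximal tubule, the descending thin limb and many capillaries. It had 11327, 11051, 12239 and 12631 normalised reads at 6 months and 12598, 12682, 13122 and 14037 at 15 months. At 24 months it had 11139, 11125, 11149 and 12510, and at 30 months 11180, 10967, 14323 and 11953. The groups at 30 and 6 months overlap, with the highest value in 30-month replicate 3. The log2 fold change was 0.03 (SE 0.08, 95% interval -0.14 to 0.20, adjusted p = 0.817), and -0.09 without 30-month replicates 3 and 4. In 30-month replicate 3 the summed level of 24 proximal tubule genes was lowest, at 450636 normalised reads, against 614304 to 690083 in the other 30-month libraries. That library had the highest 30-month sum of principal cell genes, at 13393 against 9818 to 11038 in the others. The same held for intercalated cell genes, at 6640 against 4237 to 5160. Whether that library differed in its share of nephron segments was not tested.

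Of the 24 proximal tubule genes, 11 fell and 1 rose at 30 months, with a median of -0.18, and the counts were 7 and 3 without 30-month replicates 3 and 4, and 8 and 4 with a median of -0.03 scaled by library total. The fallers with the smallest adjusted p were Slc27a2 (fatty acid uptake, -0.37), Napsa (a lysosomal protease, -0.38), Ggt1 (a brush border enzyme, -0.64) and Hnf4a (a transcription factor, -0.20). Ggt1 had -0.37 without 30-month replicates 3 and 4 (adjusted p = 0.00330). Slc5a12, a lactate transporter, rose by 0.28 (adjusted p = 0.00546). In the thin limb list, 1 of 5 genes rose and 1 fell (the urea transporter gene Slc14a2, -0.31). That fall was lost without 30-month replicates 3 and 4 (adjusted p = 0.127), and scaled by library total 2 rose and 0 fell.

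Aqp2 encodes the vasopressin-regulated water channel of the collecting duct. It had 2130, 1540, 1781 and 1867 normalised reads at 6 months and 2167, 2158, 1608 and 1963 at 15 months. The libraries of 24 months had 1638, 2509, 2077 and 2245, and at 30 months 2494, 2051, 2319 and 2599. The 30- and 6-month groups overlap only through 6-month replicate 1 and 30-month replicate 2. Aqp2 averaged 2366 ± 240 at 30 months and 1829 ± 243 at 6 months (SD, n = 4 each) and rose by 29.6%, a log2 fold change of 0.37 (SE 0.13, 95% interval 0.11 to 0.64, adjusted p = 0.0369). The call was lost without 30-month replicates 3 and 4 (0.32, adjusted p = 0.179), with no filter on low values (adjusted p = 0.0558) and on leaving out any of 6 single libraries, with adjusted p up to 0.120. Those 6 were replicates 2, 3 and 4 at 6 months and replicates 1, 3 and 4 at 30 months.

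Other collecting duct genes were read beside Aqp2. Of 12 principal cell genes, the cells that hold Aqp2, 5 fell at 30 months and 0 rose, with a median of -0.28. On leaving out 30-month replicates 3 and 4, 7 fell. Scaled by library total, 4 fell, with a median of -0.13. The fallers included Scnn1g and Scnn1b, subunits of the epithelial sodium channel (-0.42 and -0.32), Kcne1, a potassium channel subunit (-0.74), and Aqp4, a basolateral water channel (-0.62). Of 7 tested aquaporin and vasopressin receptor genes, 2 fell and 0 rose, Aqp4 and Aqp11 (-0.30, adjusted p = 0.00593). Aqp11 did not pass without 30-month replicates 3 and 4 (adjusted p = 0.0828), and scaled by library total 1 gene of the list fell. Aqp3, the other basolateral water channel, had a log2 fold change of -0.05 (adjusted p = 0.606), and Avpr2, the vasopressin receptor of the duct, -0.31 (adjusted p = 0.0965).

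Beside principal cells the duct holds intercalated cells, which move acid and base. Of 10 intercalated cell genes, 5 fell and 0 rose, with a median of -0.43, among them Insrr, a sensor of alkaline pH (-0.85), Slc26a4, the exchanger pendrin (-0.56), Slc4a1, the anion exchanger AE1 (-0.38), and Atp6v0d2, a proton pump subunit (-0.45). With 30-month replicates 3 and 4 left out, 8 of the 10 fell, with a median of -0.63, and leaving out each library 4 to 9 fell. Of 5 connecting tubule genes, 4 fell and 0 rose, with a median of -0.80. Besides Calb1 and Slc8a1 these were Klk1, the protease kallikrein (-0.80, adjusted p = 0.000296), and Trpv5, the calcium channel (-0.46, adjusted p = 0.0107), which did not pass without 30-month replicates 3 and 4 (adjusted p = 0.0556). With library-total scaling, 2 intercalated cell and 3 connecting tubule genes fell. The bases before the Aqp2 start are shown because a core of the cyclic AMP response element lies there, on the minus strand at position -212, and vasopressin acts through cyclic AMP. They run from -250 to -2 (GRCm38.p6, chr15:99578806-99579054, plus strand), with that match, TGACGT read from the other strand, in capitals.
Aqp2: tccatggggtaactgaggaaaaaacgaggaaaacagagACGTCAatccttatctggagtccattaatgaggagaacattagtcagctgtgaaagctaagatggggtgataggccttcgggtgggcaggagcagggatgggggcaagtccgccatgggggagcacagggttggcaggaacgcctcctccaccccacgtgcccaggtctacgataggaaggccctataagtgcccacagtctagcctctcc

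Ren1 encodes renin. It had 767, 823, 743 and 901 normalised reads at 6 months and 812, 720, 797 and 754 at 15 months. At 24 months it had 590, 482, 229 and 532, and at 30 months 461, 488, 310 and 173. All 8 older libraries lie below all 8 younger ones, one of the 2.77% of all genes for which this held, and the spread within the older groups is wider. Ren1 averaged 358 ± 146 at 30 months and 808 ± 70.3 at 6 months (SD, n = 4 each). It fell by 58.8%, a log2 fold change of -1.28 (SE 0.28, 95% interval -1.88 to -0.68, adjusted p = 0.00331). The 2 lowest 30-month values are replicates 3 and 4, and without them the log2 fold change was -0.76 (adjusted p = 0.0421).

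At 24 against 6 months Ren1 had a log2 fold change of -0.90 (SE 0.28, 95% interval -1.495 to -0.303) and an adjusted p of 0.0509, just above 0.05. Its adjusted p ranged from 0.00585 to 0.164 over the other settings run, and the log2 fold change was -0.60 at the upper end, without 24-month replicate 3, the lowest library of that age. At 30 against 24 months the difference was -0.38 (SE 0.28, adjusted p = 0.612), and 0.14 without 30-month replicates 3 and 4. At 15 against 6 months it was -0.07 (SE 0.28, adjusted p = 0.950). A short stretch before the Ren1 start is shown for its TATA box, in capitals, at position -29 (GRCm38.p6, chr1:133350629-133350658, plus strand, positions -45 to -16).
Ren1: tgtgatacatggtgtgTATAAAagaaggct
TATAAA was also found in the Slc12a3 window at -32, and not in those of the other 7 genes.

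Of 16 tested genes of the renin, angiotensin and aldosterone system, 6 fell and 0 rose at 30 months, with a median of -0.14. Ace, the angiotensin-converting enzyme, fell by 1.18 (SE 0.27, adjusted p = 0.00371). It had 2945, 3051, 954 and 2481 normalised reads at 30 months, against 5082, 4975, 5158 and 4360 at 6 months, with no overlap. Replicate 3 at 30 months is the lowest, and without replicates 3 and 4 the change was -0.70 (adjusted p = 0.00553). Akr1b7, an enzyme also found in renin cells of mice, fell by 0.96 from low levels, with means of 17.3 normalised reads at 30 months and 34.8 at 6 months. Hsd11b2, which shields the mineralocorticoid receptor from glucocorticoids, fell by 0.39, and Mme, the peptidase neprilysin, by 0.42. Mme did not pass without 30-month replicates 3 and 4 (-0.26, adjusted p = 0.104). The substrate gene Agt had a log2 fold change of 0.14 (adjusted p = 0.187), and the receptor gene Agtr1a 0.16 (adjusted p = 0.290).

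The count of falling genes in that system was 3 without 30-month replicates 3 and 4, and 3 with 2 risers and a median of 0.0054 when scaled by library total. In the macula densa, the tubule cells that signal to renin cells, 2 of 3 genes rose, Ptgs2, a prostaglandin synthase (2.04, adjusted p = 0.00613), and Pappa2, a protease (1.65, adjusted p = 0.0427). Both are low, with means of 15.0 and 31.6 normalised reads at 30 months against 3.53 and 9.91 at 6 months, and neither passed without 30-month replicates 3 and 4.

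Nphs1 encodes nephrin, a protein of the slit diaphragm between podocytes. It had 416, 381, 430 and 469 normalised reads at 6 months and 450, 496, 482 and 452 at 15 months. Those of 24 months had 426, 465, 538 and 523, and at 30 months 502, 570, 627 and 469. The 30- and 6-month groups barely overlap, with 468.6 as the lowest 30-month value and 468.8 as the highest 6-month one. Nphs1 averaged 542 ± 70.6 at 30 months and 424 ± 36.2 at 6 months (SD, n = 4 each) and rose by 27.2%. The log2 fold change was 0.35 (SE 0.09, 95% interval 0.15 to 0.55, adjusted p = 0.0121), and it passed in every setting run, with adjusted p up to 0.0439.

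Of 17 tested podocyte genes other than Nphs1, 6 rose and 2 fell at 30 months, with a median of 0.10. The risers were led by Cdkn1c, a cell cycle inhibitor (0.82, adjusted p = 0.000288), Ptpro, a receptor phosphatase (0.57), Kirrel, the nephrin partner Neph1 (0.48), and Plce1, a phospholipase (0.31). Col4a3, a basement membrane collagen (-0.32), and Dach1, a transcription factor (-0.45), fell. On leaving out 30-month replicates 3 and 4 the podocyte counts were 3 higher and 0 lower, and Plce1, Col4a3 and Dach1 no longer passed (adjusted p = 0.0890, 0.279 and 0.205). On the library-total scale, 9 rose and 0 fell, with a median of 0.25. The summed level of the podocyte list was 19199 to 21338 normalised reads at 30 months and 19991 to 20964 at 6 months, with overlap.

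**Figure D3:**
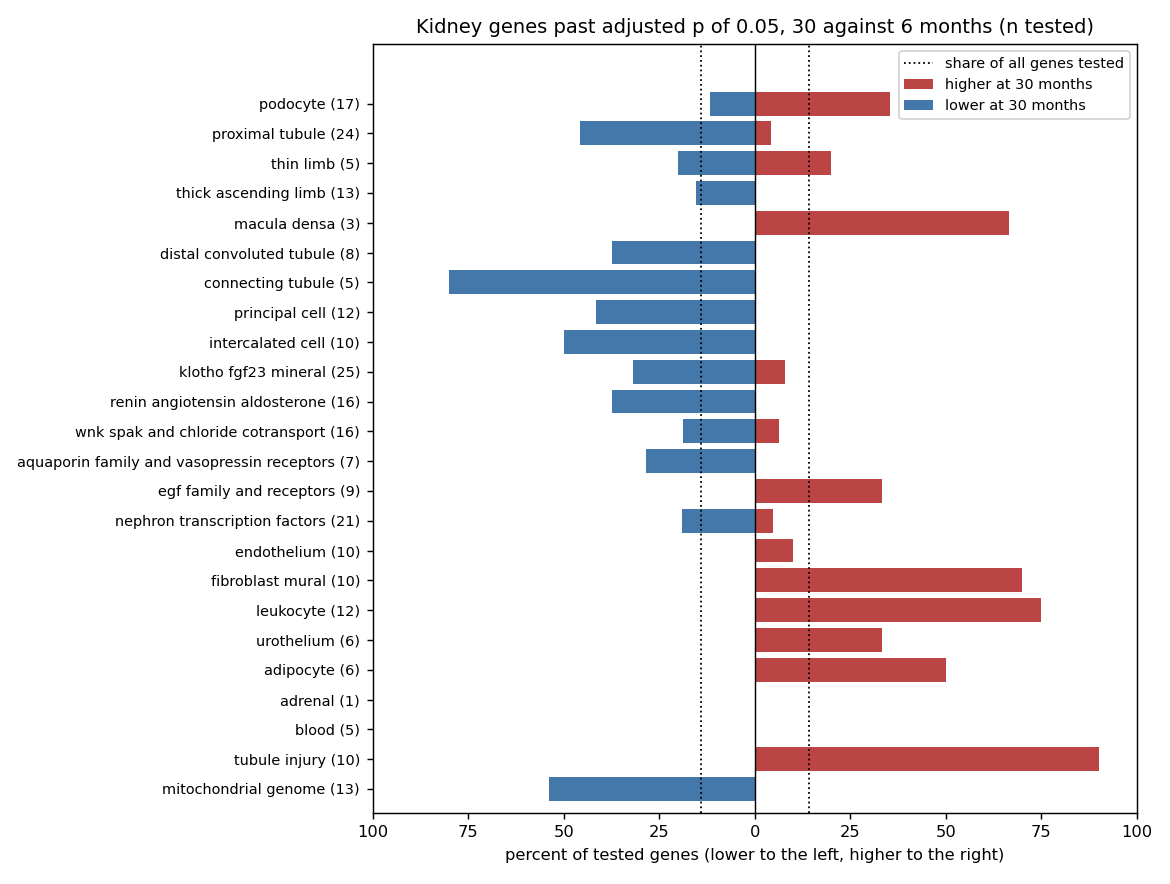
Share of the tested genes of each list that passed adjusted p 0.05 at 30 against 6 months in Kidney, higher to the right and lower to the left, in percent, with the number tested in brackets. Dotted lines mark 14.1%, the share of all 15706 genes in each direction. The distal convoluted tubule, connecting tubule, principal cell and intercalated cell lists have bars only to the left. So do the thick ascending limb, renin system, aquaporin and mitochondrial genome lists. The macula densa, leukocyte, fibroblast and injury lists have bars only to the right, as do the EGF family, endothelium, urothelium and adipocyte lists.

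Of 21 nephron transcription factors, 4 fell and 1 rose at 30 months, with a median of -0.07 (0.08 scaled by library total, with 0 lower and 2 higher). Besides Hnf4a the fallers were Emx2 (-0.40), Hnf4g (-0.40) and Esrrg (-0.31), and Pax8 rose by 0.24. Of these 5, Hnf4a alone passed without 30-month replicates 3 and 4, where 2 of the list fell and 0 rose. Markers of other cells and of tubule state moved in the same libraries. Of 10 tubule injury genes, 9 rose, among them Lcn2 (3.18) and Vcam1 (1.94), and their sum was 18687 to 24254 normalised reads at 30 months, against 10989 to 12487 at 6 months. Of 12 leukocyte genes, 9 rose, with sums of 1053 to 4550 against 541 to 886. Replicate 4 at 30 months, with the lowest Ren1, had the highest leukocyte sum, and replicate 3, with the lowest Kl, had the lowest of its age.

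Of 10 fibroblast and mural cell genes, 7 rose, among them Dcn (0.94), with sums of 6612 to 8379 normalised reads at 30 months and 4813 to 5469 at 6 months. Of 10 endothelial genes, 1 rose (Eng, 0.41), with sums of 10953 to 11863 and 9948 to 10754. With library-total scaling 6 rose, and without 30-month replicates 3 and 4, 1 rose and 1 fell. Of 6 urothelial genes, 2 rose, with sums of 299 to 426 and 225 to 265, and of 6 adipocyte genes, 3 rose, with sums of 544 to 1035 and 180 to 341. With 30-month replicates 3 and 4 left out, 1 gene of each list rose. Of 5 blood genes none passed in limma, with sums of 6936 to 15884 at 30 months and 7697 to 10792 at 6 months. At 15 against 6 months all 5 blood genes were higher and passed, where 0.478% of all genes passed in either direction. Their sums at 15 months were 16288.5 to 24160.7. Of 6 adrenal genes 1 was tested, Star, and did not pass, with sums of 16.8 to 34.8 at 30 months and 11.4 to 23.8 at 6 months, and Cyp11b1 and Cyp11b2, which define the adrenal cortex, were at 0 in every 6- and 30-month library. Of 13 mitochondrial genome genes, 7 fell and 0 rose, with a median of -0.42. The part of these cells and states in the changes of the 9 genes was not tested.

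At 24 against 6 months 0 of the 9 genes passed in limma, where 10.6% of all genes did. At an unadjusted p under 0.05 there were 3, Kl, Egf and Ren1. The share of all genes at an unadjusted p was not taken, so the unadjusted counts in this paragraph have no background. The percentages here are for adjusted p. The number passing adjusted p was 1 by edgeR (Ren1, adjusted p = 0.0487) and 0 by DESeq2. Egf, Aqp2 and Nphs1 had log2 fold changes of -0.21, 0.20 and 0.20, each with the sign they had at 30 months. At 15 against 6 months 0 of 9 passed, as against 0.478% of all genes, and 0 at an unadjusted p under 0.05, by edgeR or by DESeq2. At 30 against 24 months 0 of 9 passed in limma, edgeR or DESeq2, where 0.00637% of all genes, a single gene, passed in limma, and 2 (Slc12a1 and Slc12a3) had an unadjusted p under 0.05.

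Profiles over the 16 Kidney libraries were compared with those of 11614 genes by the mean absolute difference of centred log2 values. The nearest to Kl were Evc and Erp44 (0.062 each), against a median of 0.212 over all genes compared. For Ren1 they were Esm1 and Slc22a26, at 0.257 each, with a median of 0.545. For Nphs1 they were Fryl, Inpp4a and Dlc1 (0.064 to 0.077), for Aqp2 Igsf8, Adcy4 and Scin (0.097 to 0.115), and for Egf Pou3f3, Tmem128 and Atl2 (0.050 to 0.062). The flat profiles of the other 4 genes were near many genes: Rpa1, P3h1 and Kpnb1 for Umod, Wdr1, Itgb1 and Cd24a for Slc12a1, Txnrd1, Ciao3 and Pds5a for Slc12a3, and Hadhb, Mrpl24 and Ppme1 for Aqp1. None of the 9 genes was among the 3 nearest of another.

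Levels between genes were compared as CPM (reads scaled to a fixed library total) per kilobase of exon, with exon lengths from a GENCODE annotation of GRCm38. Umod had a median of 1042 over the 16 Kidney libraries, followed by Aqp1 at 276, Slc12a1 at 197, Egf at 120, Slc12a3 at 92.5, Aqp2 at 89.2, Kl at 78.1, Ren1 at 24.0 and Nphs1 at 4.38. Libraries of Umod, Aqp1 and Slc12a1 do not overlap with those of their neighbours in this order. Egf, Slc12a3, Aqp2 and Kl overlap each with the next, from 99.1 to 148 for Egf down to 53.3 to 90.2 for Kl. Ren1, at 6.65 to 32.5, lies below all Kl libraries and above all Nphs1 libraries (3.39 to 6.50). With age the order within that middle set differed: at 30 months Aqp2 averaged 109 ± 10.6 and Kl 67.2 ± 10.01, while at 6 months they averaged 75.7 ± 10.4 and 81.4 ± 4.55 (SD, n = 4 each).

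**Figure D4:**
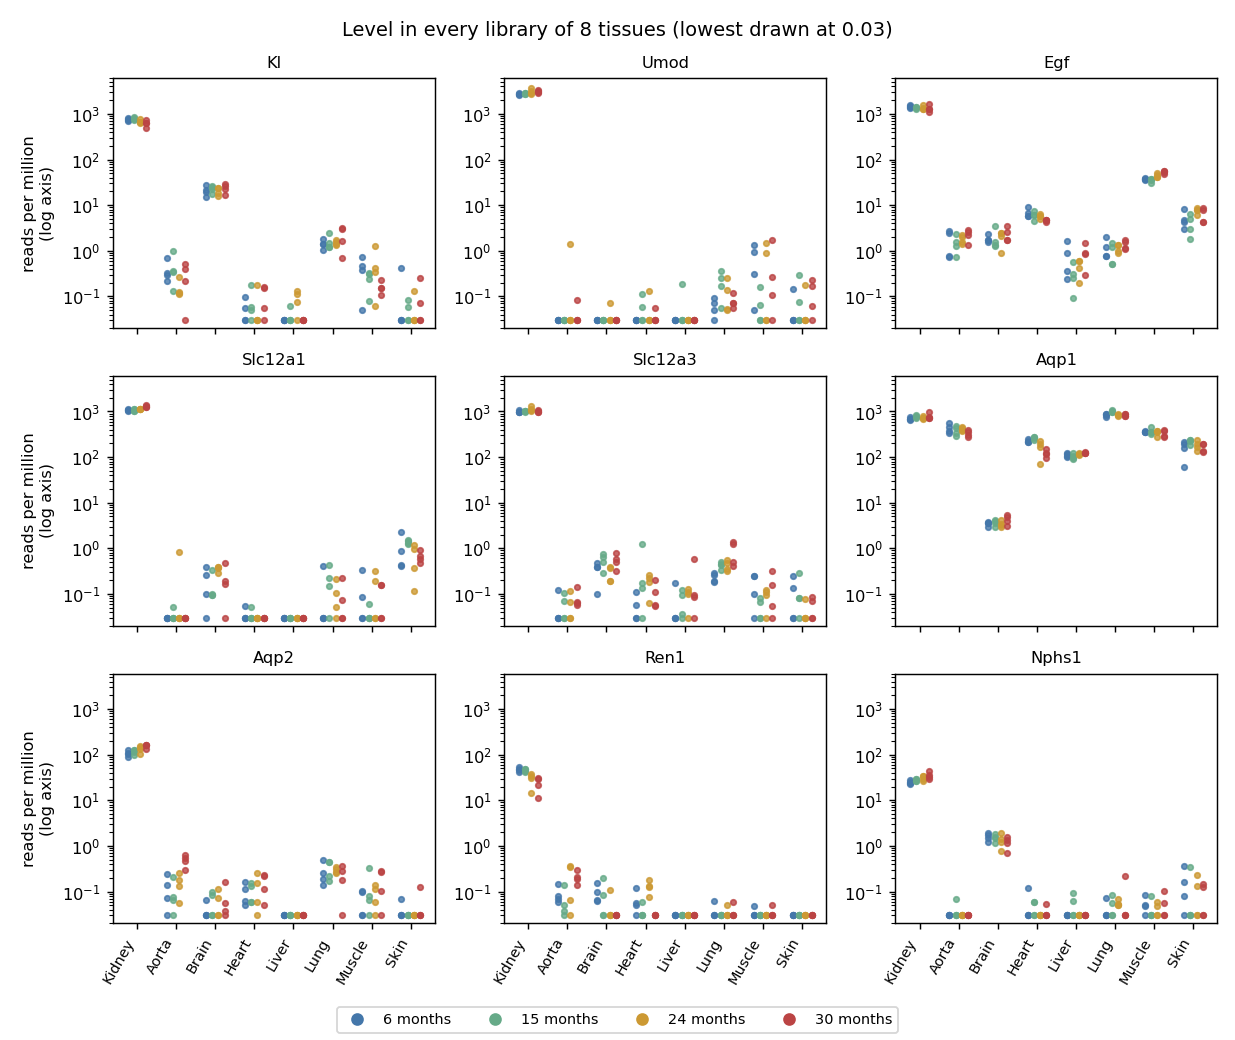
CPM, the scaled reads of each library, on a log axis, for each gene in every library of 8 tissues, with colours for age in months, and values of 0 drawn at the bottom. Kidney is highest for all genes but Aqp1, which is highest in Lung.

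Across tissues the levels are in CPM and were not tested, because the tables were normalised separately. Kidney had the highest median for 8 of the 9 genes. Umod, Slc12a3, Aqp2 and Ren1 had medians under 0.5 CPM in all 7 other tissues, against 2880, 1028, 127 and 39.8 in Kidney. Ren1 had 0 reads in the 16 Skin libraries, which allows up to 0.0134 CPM at 3 reads over the tissue, so that Kidney, with a mean of 36.4, was at least 2722-fold higher. Slc12a1 and Aqp2 had 0 reads in the 16 Liver libraries, which allows up to 0.00917 CPM on the same basis. These limits cover counting error only.

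Kl had a median of 729 CPM in Kidney, 22.7 in Brain, where the choroid plexus is its known source, and 1.46 in Lung, with under 0.3 in the other 5 tissues. Nphs1 had 29.0 in Kidney and 1.44 in Brain. Slc12a1 had 1133 in Kidney and 0.906 in Skin. Egf had 1355 in Kidney, 40.1 in Muscle, 5.83 in Heart and 5.50 in Skin. Aqp1, present in endothelium, had 726 in Kidney and 863 in Lung, and ranges of 651 to 984 and 767 to 1095 that overlap. Aorta followed at 389, Muscle at 359, Heart at 212, Skin at 192, Liver at 118 and Brain at 3.64.

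Outside Kidney, 3 tests of a member passed at 30 against 6 months out of 19 run in tissues where the gene passed the filter. Egf and Aqp1 fell in Heart, where 5.16% of all genes passed, and Egf rose in Muscle, where 13.1% passed. Aqp1 in Heart had 1822, 2025, 2542 and 1547 normalised reads at 30 months, against 3699, 3604, 4399 and 3842 at 6 months. The log2 fold change was -0.99 (SE 0.24, adjusted p = 0.0247). Egf in Heart had 69.6, 80.7, 70.0 and 75.2 at 30 months, against 104, 151, 101 and 117 at 6 months, with a log2 fold change of -0.65 (SE 0.16, adjusted p = 0.0240). Egf in Muscle had 836, 898, 969 and 982 at 30 months, against 692, 693, 700 and 620 at 6 months, with a log2 fold change of 0.44 (SE 0.08, adjusted p = 0.00311). The groups do not overlap in any of the 3 cases, as held for 9.36% of all genes in Heart (lower) and 8.94% in Muscle (higher).

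The Muscle call held on leaving out each library in turn, with adjusted p up to 0.0116. The Heart calls did not: adjusted p reached 0.0878 for Egf, without 6-month replicate 2, and 0.0828 for Aqp1, without 6-month replicate 3. Egf lost its call without any of 6-month replicates 2 and 4 and 30-month replicates 1 and 3, and Aqp1 without any of 6-month replicates 1, 3 and 4 and 30-month replicates 1, 2 and 4. Without the 24-month replicate 4 of Heart, the shallowest of all libraries at 7647585 reads, an alternative added after seeing the data, the adjusted p was 0.00555 for Egf and 5.52e-05 for Aqp1. The other tissues had no call among the 9 genes, where 5.60% of all genes passed in Aorta, 7.20% in Brain, 23.8% in Liver, 19.4% in Lung and 0.723% in Skin. Kl in Brain had a log2 fold change of 0.18 (SE 0.19, adjusted p = 0.631) and in Lung of 0.37 (SE 0.37, adjusted p = 0.526). Nphs1 in Brain had -0.42 (SE 0.28, adjusted p = 0.433).

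**Figure D5:**
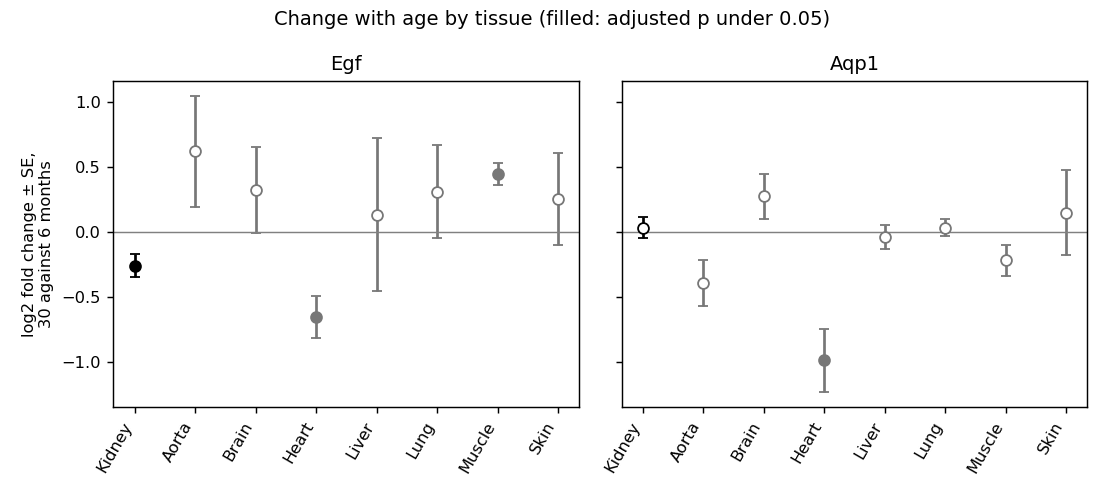
Log2 fold change ± SE of Egf and Aqp1 at 30 against 6 months in 8 tissues (4 libraries an age), filled where adjusted p is under 0.05. Filled points are Egf in Kidney and Heart, below 0, and in Muscle, above 0, and Aqp1 in Heart, below 0.

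The difference itself, the change in Kidney minus that in another tissue, was tested in 19 pairs of gene and tissue and passed in 2. For Egf it was -0.71 against Muscle (SE 0.12, limma adjusted p = 0.000246), where 15.2% of the genes tested in both tissues passed. That call held on leaving out each library in turn and was lost in the joint fit of every library in the series (adjusted p = 0.464). For Aqp1 it was 1.02 against Heart (SE 0.27, adjusted p = 0.0237), where 4.60% passed. It was lost without Kidney 30-month replicate 3 (adjusted p = 0.0560), without replicates 3 and 4 (0.144), without Heart 6-month replicate 3 (0.0518) and without Heart 30-month replicate 4 (0.0596).

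For Kl the difference was -0.62 against Brain (SE 0.23, adjusted p = 0.0597), where 17.4% of genes passed, and -0.81 against Lung (SE 0.38, adjusted p = 0.134), where 20.5% passed. Neither passed in the main limma fit, and both passed by edgeR, with adjusted p of 0.0338 and 0.0320. Those were the lowest of the other settings, where adjusted p reached 0.776 against Brain and 0.62 against Lung. Leaving out each library in turn, limma adjusted p ran from 0.0140 to 0.157 against Brain and from 0.00165 to 0.312 against Lung. For Nphs1 the difference against Brain was 0.76 (SE 0.29, adjusted p = 0.0612). For Egf it was -0.88 against Aorta (SE 0.43, adjusted p = 0.153), where 19.4% of genes passed. Against Liver and Skin, where 7.69% and 6.65% of genes passed, no difference of the genes tested there passed.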

How the data were processed

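RNA of mouse tissues was extracted with RNAiso Plus and sequenced with the Illumina Stranded mRNA Prep kit, per the labels' protocols. The submitters' processing notes name FastQC, STAR, RSEM, DESeq2 and build GRCm39, with no versions. Which annotation was used for counting is not stated. The signal values deposited by the authors are normalised reads, gene counts divided by a size factor for each library, in a table per tissue. Whole reads were recovered from them for 100% of values within 0.01 reads, which gave depths of 7647585 to 82801330 reads. No column lacked a sample (0).

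Values were tested with limma 3.58.1 (trend, all 4 ages, no block) on log2(value + 1), after edgeR's filterByExpr with a minimum count of 10, and p-values were adjusted by Benjamini-Hochberg over all genes tested in a comparison. The pseudocount understates fold changes of low genes. edgeR 4.0.16 and DESeq2 1.42.0 on the recovered reads, limma-voom, other scalings, filters and pseudocounts were alternatives. Scripts ran in R 4.3.3 and Python 3.11.15 and were tested on simulated data. The members and gene lists were chosen with earlier results of these data known. Genes named from a list are the up to 4 in each direction with the smallest adjusted p among those that passed in Kidney at 30 against 6 months, with pathway genes of known role added after their values were seen, and the 3 genes nearest in profile to each member among tested genes with a mean of 50 or more normalised reads. Some genes that this rule picks are not reported here. Promoters are from RefSeq on GRCm38.p6, and gene coordinates on GRCm39 were not used here.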

Additional observations from a re-analysis of the deposited data

Results flagged for a closer look

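In 6 groups of libraries, a value stood apart from the other 3 by Dixon's criterion, of 112 groups of 4 checked, and chance flags about 1 in 20 groups. Aqp1 in Kidney had 12510 normalised reads in replicate 4 at 24 months, with 11125 to 11149 in the other 3. Egf in Brain had 40.6 in replicate 1 at 6 months (the others had 28.0 to 29.6) and 59.0 in replicate 1 at 15 months (22.1 to 27.3). Umod in Muscle had 30.8 in replicate 4 at 30 months, with 0 to 4.40 in the others. Egf in Muscle had 620 in replicate 4 at 6 months, with 692 to 700 in the others, and Slc12a1 in Skin had 16.9 in replicate 4 at 15 months, with 21.1 to 21.9 in the others.

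Among the pairs of gene and tissue tested, the difference in the change at 30 against 6 months passed for 2 genes. Neither call held in every setting. For Aqp1 the log2 change in Kidney minus that in Heart was 1.02 (limma adjusted p = 0.0237), with 0.03 in Kidney and -0.99 in Heart. Of the genes tested in both tissues 4.60% passed. The Aqp1 call was lost without Kidney 30-month replicate 3 (limma adjusted p = 0.0560), among other settings. For Egf the log2 change in Kidney minus that in Muscle was -0.71 (limma adjusted p = 0.000246), with -0.26 in Kidney and 0.44 in Muscle. Of the genes tested in both tissues 15.2% passed. The Egf call was lost in the joint fit of every library in the series (limma adjusted p = 0.464).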

How the results depend on the processing

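Over 74 values of single genes and 1641 recomputed values, 1528 kept direction and side of the threshold, 34 lost the call, 29 gained it and 50 changed sign, with the cause not tested. In Kidney at 30 against 6 months Kl, Ren1 and Nphs1 passed in every setting run. The count of the 9 genes that passed, 5, was 3 with no filter on low values, 4 with the 2 ages alone or the replicate block (Egf lost) or without 30-month replicates 3 and 4 (Aqp2 lost), and 3 to 5 leaving out each library. Scaled by library total it was 5 with Slc12a1 in and Egf out. At 24 against 6 months the count of 0 was 1 with edgeR, TMM scaling, a pseudocount of 5 or the replicate block, 2 with the 2 ages alone, 3 with limma-voom or without 30-month replicates 3 and 4, and 0 to 2 leaving out each library. At 15 against 6 and 30 against 24 months it was 0 throughout. Calls among all genes also moved with the setting. At 24 against 6 months the main fit had 1053 higher and 610 lower of 15706, and edgeR 1005 and 704. The 2 ages alone had 1252 and 1002 of 15054, and limma-voom 1472 and 1446 of 15706. Without 30-month replicates 3 and 4 there were 1492 and 1213 of 16163. At 30 against 6 months with no filter, 2054 were higher and 1852 lower of 28499. Same-numbered libraries at 30 and 6 months had correlations of deviations of 0.00122, 0.0335, 0.0216 and 0.125, so the numbers do not pair them. With the replicate block, Egf at 30 against 6 months had an adjusted p of 0.0555. In the other tissues the 3 calls were 1 to 3 leaving out each library (1 without Heart 6-month replicate 4 or 30-month replicate 1). The 2 differences between tissues were 1 in the fit of every library in the series or without Kidney 30-month replicates 3 and 4, 4 with edgeR, and 1 to 3 leaving out each library. Signs changed in the following cases. At 30 against 6 months these were Umod at -0.0073 (voom) and -0.040 (without replicates 3 and 4), Aqp1 at -0.036 and -0.091 under the same settings, and Slc12a3 at 0.015 scaled by library total. At 24 against 6 months Slc12a1 was 0.077 and Aqp1 0.078 scaled by library total. At 30 against 24 months Aqp1 was -0.0038 (voom) and -0.050, and Ren1 0.14, without replicates 3 and 4. Egf in Liver was -0.13 with edgeR. Egf in Kidney minus Liver was 0.0077 and Aqp1 in Kidney minus Lung 0.0031 with edgeR, and Aqp1 in Kidney minus Liver -0.051 without replicates 3 and 4. Leaving out each library, the ranges that crossed 0 were, at 30 against 6 months, -0.019 to 0.041 for Umod and -0.054 to 0.074 for Aqp1. They were -0.0060 to 0.12 for Umod at 24 against 6 months, and -0.058 to 0.017 for Slc12a1 and -0.0079 to 0.027 for Slc12a3 at 15 against 6 months. At 30 against 24 months they were -0.11 to 0.020 for Umod, -0.13 to 0.026 for Egf and -0.014 to 0.11 for Aqp1. In the other tissues they were -0.27 to 0.57 for Egf in Liver, and for Aqp1 -0.098 to 0.034 in Liver, -0.020 to 0.063 in Lung and -0.28 to 0.36 in Skin, and -0.58 to 0.15 for Slc12a1 in Skin. For Kidney minus another tissue they were -0.83 to 0.012 for Egf against Liver, -0.014 to 0.13, -0.085 to 0.049 and -0.33 to 0.31 for Aqp1 against Liver, Lung and Skin, and -0.038 to 0.69 for Slc12a1 against Skin. Depth limits low genes: Umod, Slc12a3, Aqp2 and Ren1 had few reads outside Kidney.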
